A study of Mus musculus with 2 samples.

Results

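The miR-30 family is a set of microRNA genes whose mature products from the 5′ side of the precursor open with nearly the same bases. A microRNA guides the silencing complex to messenger RNAs that pair with its seed, bases 2 to 8 from the 5′ end, so that products with a common seed can act on overlapping sets of targets. Each gene yields a hairpin precursor from which a mature RNA can be cut on either side, the 5p and the 3p arm. In other work miR-30a lowered the autophagy protein beclin 1 in human cells and BDNF, a growth factor of neurons, and miR-30 family members lowered the Notch ligand Dll4 in endothelium.

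The 7 genes were taken by symbol: Mir30a, Mir30b, Mir30c-1, Mir30c-2, Mir30d, Mir30e and Mir30f, of 2202 microRNA genes annotated in GENCODE M21 on mouse build mm10. The rule used the symbols alone. The tissue was the left cerebral cortex, taken at 18 to 20 months of age from B6CASTF1/J mice, first-generation hybrids of the strains C57BL/6J and CAST/EiJ, with no treatment in the labels. There were 2 libraries, labelled biological replicates 1 and 2, each made from total RNA selected for lengths under 30 nucleotides. The labels give female in the sex field and male in a free-text line, and both libraries carry the same donor identifier, so separate animals rest on the replicate numbers alone and the spread between libraries may be technical. The labels give no contrast between groups, so the values below describe 1 tissue in 2 libraries.

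The tables held 5166667 sense counts in replicate 1 and 4459993 in replicate 2. Levels are CPM, sense counts divided by the sense total at microRNA genes and multiplied by 1000000. Mean ± SD is over the 2 libraries (n = 2), and expressed means 2 CPM or more in both. The label of the tissue was set against microRNAs of its cells: 11 of 14 neuron-list genes were expressed, beside 409 of all 2202 genes. The neuron list summed to 79441 and 66377 CPM in replicates 1 and 2, and Mir132 alone made up 52.2% of the mean sum. The liver microRNA Mir122 was at 54.6 and 60.1 CPM and the pancreas microRNA Mir375 at 310.5 and 256.5 CPM. The epithelium genes summed to 1465 and 120.6 CPM. The 3 neuron-list genes not expressed were Mir124a-1, Mir124a-2 and Mir124a-3, copies of the neuronal miR-124, with 21, 1 and 2 counts in replicate 1 and 6, 2 and 1 in replicate 2. The copies make the same mature miR-124, and the tables list reads with several places in the genome apart from the genes, so these counts may leave out reads of it and give no level for miR-124. Whether other numbered genes of the list, such as those of miR-9 and miR-128, lose reads likewise was not checked. In whole tissue, fewer cells of a type and less RNA per cell cannot be told apart.

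The mature sequences are shown because the family is defined by them and because they decide which reads can be given to 1 gene. RefSeq entries on GRCm38.p6 were matched for Mir30a, Mir30c-1, Mir30c-2, Mir30e and Mir30f, and for Mir384, a gene outside the family by name. The seed is in capitals, 5′ to 3′.
miR-30a-5p: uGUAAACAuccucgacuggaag
miR-30c-5p: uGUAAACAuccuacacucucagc
miR-30e-5p: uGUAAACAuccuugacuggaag
miR-384-5p: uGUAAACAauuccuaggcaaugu
miR-30f: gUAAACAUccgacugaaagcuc
miR-30a-3p: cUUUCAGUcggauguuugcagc
miR-30e-3p: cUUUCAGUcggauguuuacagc
miR-30c-1-3p: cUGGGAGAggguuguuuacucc
miR-30c-2-3p: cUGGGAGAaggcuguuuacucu

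Among 1679 mature names of that table, 4 carried the seed GUAAACA, those of miR-30a-5p, miR-30c-5p, miR-30e-5p and miR-384-5p, made by 5 genes. The table is not complete and has no entry for Mir30b and Mir30d, so their seeds were not read. These are counts of its names, and the seed groups cover the matched members, 5 of 7. The 3p arms of Mir30a, Mir30e and the Mir30c copies fell into 2 seed groups, one of miR-30a-3p with miR-30e-3p and one of both miR-30c 3p arms. Counted from 1 at the 5′ end, miR-30a-5p and miR-30e-5p were alike in 21 of 22 bases and differed by C13U, outside the seed. Their 3p arms were also alike in 21 of 22 bases, with G18A as the difference. miR-30f is shifted by a base against the others: its first 10 bases equal those of miR-30a-5p from base 2 on, and its own seed, UAAACAU, was found in no other mature name.

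The family's part of all sense counts was 1.97% for replicate 1, with exact (Clopper-Pearson) 95% limits of 1.96% and 1.98%, and 1.90% for replicate 2, with limits of 1.89% and 1.92%. Its summed level was 19696 CPM in replicate 1 against 19039 CPM in replicate 2, a mean of 19367 ± 464.7 CPM. Intervals cover counting error only. Of the 7 genes 6 were expressed, and Mir30d, Mir30a and Mir30e made up 97.6% of the family count in replicate 1 and 96.9% in replicate 2. In these counts the 3 genes stood far above the other members, and the order of the levels is given from the highest down.

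Mir30d (ENSMUSG00000065437.1), which lies in an exon of the long noncoding RNA gene Gm20732 on chromosome 15 (68341208 to 68341289, minus strand), had 52085 sense counts in replicate 1 and 31198 in replicate 2. That is 10081 CPM and 6995 CPM, at rank 23 and rank 31 of all genes. Mir30d was the highest member in both libraries, with a mean of 8538 ± 2182 CPM. On the same strand it also overlaps an exon of Gm37296 by 9 bases.

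Mir30a (ENSMUSG00000065405.3), source of the 5p product linked to beclin 1 and BDNF, lies on chromosome 1 (23272269 to 23272339, plus strand). No annotated gene overlaps it there, microRNA genes left aside. It had 28377 counts in replicate 1 and 28602 in replicate 2, or 5492 CPM and 6413 CPM, at rank 35 in both. Its mean was 5953 ± 651.0 CPM. Mir30d lay above Mir30a in both libraries, and their ranges did not overlap. Their means differed by less than the sum of their SDs, which describe each gene between libraries and not the order within a library.

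Mir30e (ENSMUSG00000065409.1) lies in an intron of Nfyc, which encodes a subunit of the CCAAT-binding factor NF-Y, on chromosome 4 (120772606 to 120772697, minus strand, like Nfyc). It had 18857 counts in replicate 1 and 22468 in replicate 2, or 3650 CPM and 5038 CPM, at ranks 47 and 41. The mean was 4344 ± 981.4 CPM. Mir30a lay above Mir30e in both libraries, with a gap between means that was again smaller than the sum of the SDs.

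Below these genes the level dropped 16.9-fold between the means of Mir30e and Mir30c-2. Mir30c-2 (ENSMUSG00000065567.1), within an exon of the long noncoding RNA gene Gm27028 on chromosome 1 (23291701 to 23291784, plus strand), had 1197 and 1254 counts, 231.7 CPM in replicate 1 against 281.2 CPM in replicate 2. Its mean of 256.4 ± 35.0 CPM was 1.85 times that of Mir30c-1, its copy on chromosome 4. Mir30b (ENSMUSG00000065476.2), on chromosome 15 (68337415 to 68337510, minus strand) and overlapping an exon of Gm26621 by 16 bases, had 670 and 656 counts, 129.7 CPM and 147.1 CPM. Mir30c-1 (ENSMUSG00000065490.1), in an intron of Nfyc (120769534 to 120769622, minus strand), had 577 and 735 counts, 111.7 CPM and 164.8 CPM. Mir30b was above Mir30c-1 in replicate 1 and below it in replicate 2, so these neighbours in the order, with means of 138.4 ± 12.3 and 138.2 ± 37.6 CPM, did not differ beyond their spread.

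The lowest of the 6 expressed members still lay above the median of expressed microRNA genes, 88.9 CPM. A short RNA gives 1 read whatever the length of its hairpin, so the levels were not divided by length. Per 100 bases of hairpin the mean level was 10412 CPM for Mir30d, 8384 CPM for Mir30a, 4721 CPM for Mir30e and 305.3 CPM for Mir30c-2. On that scale the order of these 4 is the same, and Mir30c-1 at 155.3 CPM and Mir30b at 144.1 CPM change places.

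**Figure D1:**
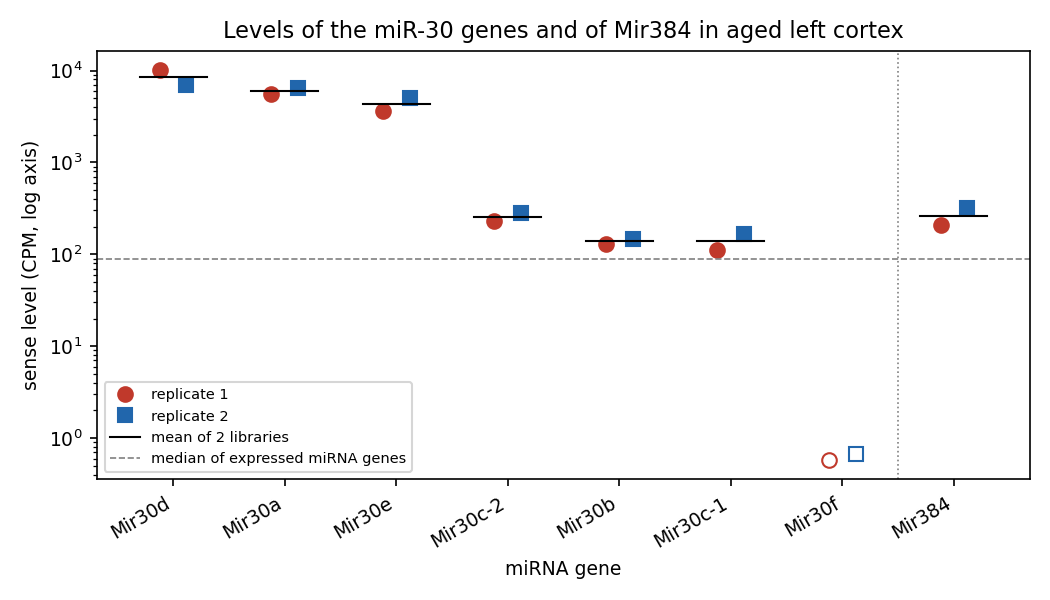
Sense level in CPM (log axis) of the 7 miR-30 genes, ordered by mean, and of Mir384 to the right of the dotted line, with replicate 1 as circles, replicate 2 as squares and the mean as a bar. Mir30d, Mir30a and Mir30e lie between 3650 and 10081 CPM, and Mir30c-2, Mir30b and Mir30c-1 between 111.7 and 281.2 CPM. The open symbols of Mir30f, which had a count of 0, stand at the level of 3 counts.

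Mir30f (ENSMUSG00000105585.1) had no sense count in either library, and with 3 counts taken as the most that a count of 0 allows, its level could be at most 0.581 CPM in replicate 1 or 0.673 CPM in replicate 2. It spans the same bases as Mir30e on the opposite strand. Its antisense count was 18857 in replicate 1 and 22468 in replicate 2, equal in each library to the sense count of Mir30e, and Mir30e had no antisense count. The same number thus appears at both genes in each library, and no read on the strand of Mir30f was detectable at this depth. The annotated miR-30f is almost the reverse complement of the 3p arm of Mir30e, with the 19 bases opposite miR-30e-3p in capitals.
miR-30f: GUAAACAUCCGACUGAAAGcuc

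Without strand, Mir30e and Mir30f cannot be told apart. In the unstranded column of the tables both genes were listed at 0 counts in both libraries, and the 5 other members kept the counts they have on the sense strand. The summed level was then 16264 CPM as a mean of both libraries, without the Mir30e counts.

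Mir30c-1 and Mir30c-2 make the same 5p product, and their hairpins are shown because of what a read can tell about its gene. The run of 28 bases that both hold is in capitals, as read from RefSeq on GRCm38.p6.
Mir30c-1: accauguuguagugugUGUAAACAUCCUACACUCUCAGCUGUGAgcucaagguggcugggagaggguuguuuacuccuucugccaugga
Mir30c-2: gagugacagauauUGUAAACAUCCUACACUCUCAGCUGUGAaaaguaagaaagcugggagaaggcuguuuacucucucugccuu

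In stretches of 20 bases, all 4 that lie within miR-30c-5p were also in the other copy, and none of the 3 within each 3p arm was. The 3p arms of the copies differ by G9A, U12C and C22U, the base of miR-30c-1-3p given first. Reads with several places, listed apart from the genes, made up 41.8% of replicate 1 and 46.4% of replicate 2. A read that lies within the shared run fits both copies. Counts of Mir30c-1 and Mir30c-2 are uncertain for that reason and may leave out most or all reads of the shared arm. They give no level for miR-30c-5p. None of the 52 stretches of 20 bases in the Mir30a hairpin, none of the 73 in Mir30e and none of the 69 in Mir384 was found in another of the 2202 annotated hairpins. The stretches of Mir30d, Mir30b and Mir30f were not searched. Places outside annotated microRNA genes were not searched either.

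**Figure D2:**
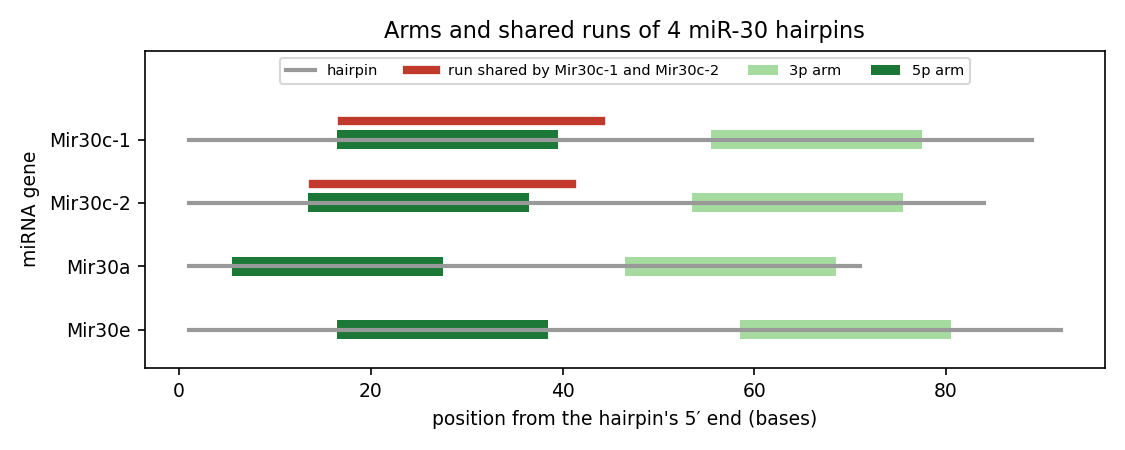
Position in bases from the 5′ end of 4 hairpins (grey lines), with the 5p arm in dark green, the 3p arm in light green and the run shared by Mir30c-1 and Mir30c-2 in red. The shared run of 28 bases covers the whole 5p arm of both copies and no base of the 3p arms, and Mir30a and Mir30e have no such run.

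The 6 expressed members lie in 3 genomic pairs, each on 1 strand, and the proportion within a pair does not depend on how the libraries are scaled. Mir30e and Mir30c-1, 2983 bases apart in Nfyc, stood at 32.7 to 1 in replicate 1 and 30.6 to 1 in replicate 2. Mir30e was thus 97.0% of the pair in replicate 1 (exact 95% limits 96.8% and 97.3%) and 96.8% in replicate 2 (96.6% and 97.1%). Mir30a and Mir30c-2, 19361 bases apart, stood at 23.7 to 1 and 22.8 to 1, and Mir30a was 96.0% of the pair in replicate 1 (95.7% and 96.2%) and 95.8% in replicate 2 (95.6% and 96.0%). In both of these pairs the ranges between the limits overlapped, and the difference in share between the libraries was not tested.

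Mir30d and Mir30b, 3697 bases apart, stood at 77.7 to 1 in replicate 1 and 47.6 to 1 in replicate 2. Mir30d was 98.7% of that pair in replicate 1 (98.6% and 98.8%) and 97.9% in replicate 2 (97.8% and 98.1%), and here the ranges did not overlap. In all 3 pairs and both libraries the first gene exceeded the second by over 20-fold. In the pairs with Mir30c-1 and Mir30c-2 the second gene is one of the copies whose 5p reads have several places, so those proportions carry the same uncertainty. For Mir30d and Mir30b it was not checked whether reads can have several places.

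By total counts, the libraries were closer in the family total than in its makeup. Mir30d was 51.2% of the family count in replicate 1 (exact 95% limits 50.9% and 51.5%) and 36.7% in replicate 2 (36.4% and 37.1%). Mir30a was 27.9% in replicate 1 (27.6% and 28.2%) and 33.7% in replicate 2 (33.4% and 34.0%), and Mir30e was 18.5% (18.3% and 18.8%) and 26.5% (26.2% and 26.8%). The coefficient of variation of the summed level was 2.40%. That of single expressed members ran from 8.90% for Mir30b to 27.2% for Mir30c-1, and its median over all 409 expressed genes was 27.4%. Mir30d and the other expressed members differed in opposite directions, which offset each other in the sum. For its mean, the miR-181 sum (4297 ± 76.6 CPM) varied less than that of miR-30 (19367 ± 464.7 CPM). The sums of miR-29 (20702 ± 3047 CPM) and miR-26 (9831 ± 5057 CPM) varied more. A steady total was thus not particular to miR-30. These values are of CPM by total counts. The log2 ratio of the summed miR-30 counts, replicate 1 to replicate 2, was 0.049 on that scale, -0.08 by TMM and -0.15 by DESeq2 size factors. The direction of the difference in the miR-30 total thus turned with the scaling, and its size was larger by TMM and by DESeq2 size factors.

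**Figure D3:**
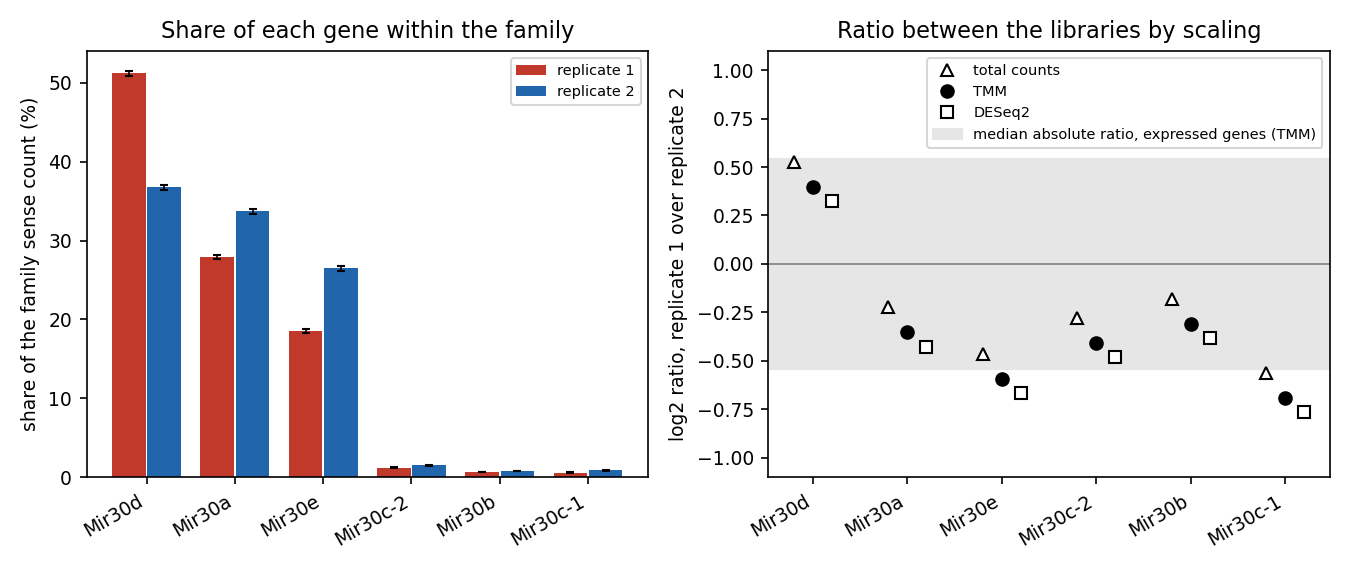
Left, share of each gene in the family sense count in percent, with 95% exact intervals, replicate 1 in red and replicate 2 in blue. Right, log2 ratio of replicate 1 to replicate 2 by total counts, TMM and DESeq2 scaling, with a grey band for the median absolute ratio of expressed genes: Mir30d is above 0 and the other 5 are below 0 by each scaling.

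Between the libraries, the log2 ratio of replicate 1 to replicate 2 by TMM scaling was 0.40 for Mir30d, and it was negative for the 5 others. It was -0.31 for Mir30b, -0.35 for Mir30a, -0.41 for Mir30c-2, -0.59 for Mir30e and -0.69 for Mir30c-1. An exact binomial test of each gene's counts, which knows counting noise alone and compares the libraries and not conditions, called 6 of 6 members tested at an adjusted p (Benjamini-Hochberg over all genes) under 0.05. Over all genes the same test called 67.1% of 438, with 34.5% higher in replicate 1 and 32.6% higher in replicate 2. Among the 316 genes whose counts over both libraries reached 100, to which all 6 belong, 260 were called.

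The largest adjusted p among the members was that of Mir30b, 0.000181 by the exact binomial test. Another test, edgeR's exact test, assumed for every gene 1 spread estimated from both libraries. None of the 6 members passed, none had an unadjusted p under 0.05, and 2 of 438 genes passed. That spread, a coefficient of variation of 46.7%, was taken from the same difference between libraries that the test then judges. So large a spread leaves little room for members to pass, and the result decides nothing about them. The median absolute log2 ratio of the 6 members was 0.40, against 0.54 over the 409 expressed genes, and all 6 lay within 2-fold, as did 310 of the 409 expressed genes (75.8%). Against total counts, TMM moved every log2 ratio by -0.13, and the sign of each of the 6 ratios was the same by total counts, TMM and DESeq2 size factors.

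**Figure D4:**
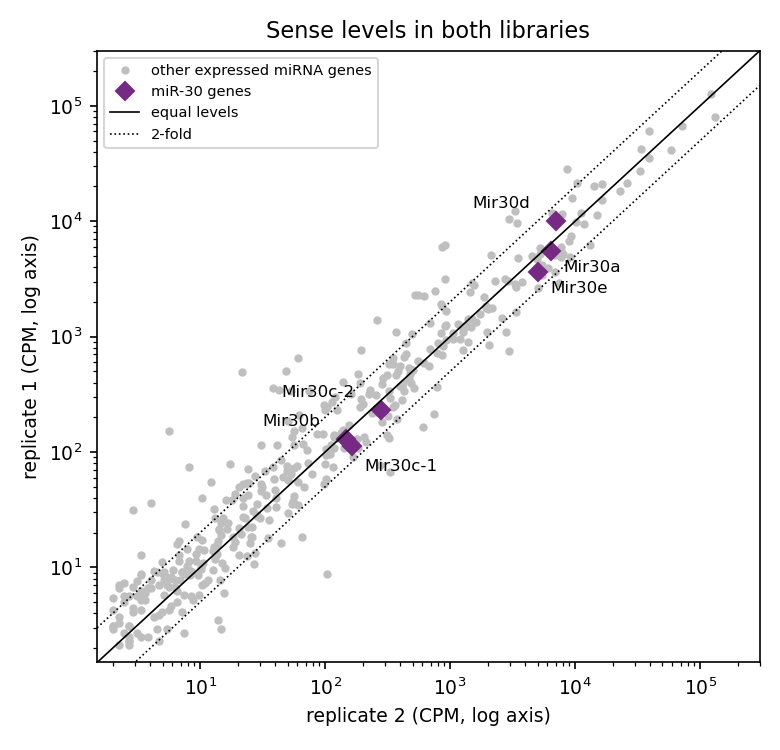
Sense level of each expressed microRNA gene in replicate 1 (vertical) and replicate 2 (horizontal), both in CPM on log axes, with miR-30 genes as purple diamonds and other genes as grey points. Mir30d lies above the line of equal levels and the 5 other expressed members below it, all inside the dotted lines at 2-fold.

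MicroRNAs of other cell types also differed between the libraries. The 5 epithelium genes, all expressed and all called higher in replicate 1, summed to 1465 CPM in replicate 1 against 120.6 CPM in replicate 2. The endothelial Mir126a stood at 21256 and 10411 CPM, and the mural genes Mir143 and Mir145a summed to 5077 and 9896 CPM. Of the 4 microglia and leukocyte genes, 3 were called higher in replicate 2 and none in replicate 1, but their sums, carried by Mir150, were 1381 and 1331 CPM. The red cell genes Mir451a and Mir144 summed to 79.2 and 52.7 CPM. Among striated muscle genes Mir206 had 18.2 and 65.5 CPM and the other 4, numbered genes of miR-1a and of miR-133a, had no count. It was not checked whether reads of these genes have several places, so the counts give no level for miR-1a or miR-133a. The same was not checked for Mir219a-1 and Mir219a-2 of the oligodendrocyte list. Of the 12 neuron-list genes tested, 5 were called higher in replicate 1 and 4 in replicate 2. The 3 oligodendrocyte genes, with 2 called higher in replicate 1 and 1 in replicate 2, summed to 3952 and 3864 CPM, and the pancreas microRNA Mir375 had 310.5 and 256.5 CPM. These calls are by the exact binomial test, beside the 67.1% of all genes above. The part of these cell types in the makeup of the family was not tested.

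Mir384 lies on the X chromosome (105344282 to 105344369, minus strand) with no annotated gene over it, microRNA genes left aside. It shares the seed of miR-30a-5p, miR-30c-5p and miR-30e-5p and is known from work on synaptic plasticity in rodents. It had 1068 counts in replicate 1 and 1412 in replicate 2, or 206.7 and 316.6 CPM, a mean of 261.7 ± 77.7 CPM. That is close to the level of Mir30c-2, whose count may leave out reads of its 5p arm, and far below Mir30d, Mir30a and Mir30e. Its log2 ratio of -0.74 has the sign of the 5 members other than Mir30d.

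By likeness of level, measured as distance on log2(CPM + 1) over both libraries, the nearest genes outside the family were Mir330 (distance 0.24) and Mir99b (0.26) to Mir30d. For Mir30a they were Mir487b (0.15) and Mir674 (0.28), and for Mir30e Mir361 (0.13) and Mir541 (0.22). For Mir30c-2 they were Mir669c (0.13) and Mir384 (0.24), for Mir30b Mir3475 (0.22) and Mir27a (0.22), and for Mir30c-1 Mir3475 (0.05) and Mir376b (0.16). With 2 libraries this says only that these genes had like levels in each.

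Set beside 3 other families with genes at several loci, the miR-30 total was close to that of miR-29, at 20702 ± 3047 CPM, above miR-26 at 9831 ± 5057 CPM and above miR-181 at 4297 ± 76.6 CPM. No test of these differences was made. All these totals and shares leave out reads with several places. By the RefSeq names, 1 mature RNA of miR-29 (miR-29b-3p), 1 of miR-26 (miR-26a-5p) and 2 of miR-181 (miR-181a-5p and miR-181b-5p) come from 2 genes each, as miR-30c-5p does, so the levels of those genes, the family totals and the shares below are uncertain and describe the counts at the genes alone. In these counts the highest gene held a smaller part of the family in miR-30, where Mir30d was 44.1% of the summed mean level, than in miR-29, where Mir29a was 90.3%, and in miR-26, where Mir26b was 98.9%. In miR-181 it was 34.3%, with Mir181d as the highest. From highest to lowest expressed gene the mean level spanned 61.8-fold in miR-30, 88.2-fold in miR-181, 180.3-fold in miR-26 and 317.3-fold in miR-29.

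All 4 miR-29 genes, all 6 miR-181 genes and all 3 miR-26 genes were expressed. By the exact binomial test 2 miR-29 genes were higher in replicate 1 and 1 in replicate 2, 2 miR-181 genes were higher in replicate 1 and 4 in replicate 2, and 2 miR-26 genes were higher in replicate 2. That is 3 of 4, 6 of 6 and 2 of 3 genes, beside 67.1% of all genes tested. With the common spread of edgeR's exact test, taken from the same libraries that it compares, 2 of all 438 genes passed. The median log2 ratio of replicate 1 to replicate 2 was -0.38 for miR-30, 0.17 for miR-29, -0.28 for miR-181 and -1.23 for miR-26, against 0.04 over all expressed genes. Mir26b, the highest gene of its family, had 6189 CPM in replicate 1 against 13252 CPM in replicate 2, a wider gap than that of any miR-30 gene on the log2 scale.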

How the data were processed

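The deposited files are 2 tables of raw read counts per microRNA gene, 1 per library, with an unstranded column and a column for each strand. Per the deposited description of the files, they use build mm10 and annotation release M21; the aligner and counter were not given in the sources used here, and the CAST parent's variants may affect placement, which was not tested. Gene symbols and coordinates came from GENCODE M21, whose microRNA genes equal those of the tables. Sense means the strand column whose gene total was the larger of the pair, the same column in each library. The 4 lines that name no gene, 65.2% of reads in replicate 1 and 65.1% in replicate 2, stayed out of the totals and the tests.

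Levels are CPM of sense counts. Ratios add 0.5 to each count and use TMM totals (edgeR 4.0.16). The 438 genes whose counts over both libraries reached 20 were tested between the libraries with a two-sided exact binomial test (scipy 1.17.1), Benjamini-Hochberg adjusted over these genes, threshold 0.05; the code was tested on simulated data. No replicated test is possible with 1 group. Alternatives were total counts, DESeq2 1.42.0 size factors, other minimums and added counts, the unstranded column, all reads as denominator, and edgeR's exact test with a common dispersion. Every p-value and interval measures counting error, or the spread between these libraries. The text names all 7 members, the genes of the lists, those with the same seed, and the 2 nearest genes in level to each expressed member. Members and lists were chosen with earlier results of these data known.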

Additional observations from a re-analysis of the deposited data

Results flagged for a closer look

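These counts lie outside the sense column of the members and exceed the 3 counts used as the limit for a count of 0. Mir30f had 18857 antisense counts in replicate 1 and 22468 in replicate 2, equal to the sense counts of Mir30e on the other strand. Multiply placed reads came to 6203588 for replicate 1 and 5928954 for replicate 2, and they are not split by gene. With 2 libraries no search for outlying samples was made.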

How the results depend on the processing

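The signs of the log2 ratios of the 6 expressed members were the same under every alternative that gave a value, from 0.32 to 0.53 for Mir30d and from -0.76 to -0.18 over the others. The summed counts changed sign with the scaling: the log2 ratio of replicate 1 to replicate 2 was -0.08 by TMM, 0.049 by total counts and -0.15 by DESeq2 size factors. In the unstranded column, by TMM and without the Mir30e counts, it was 0.058. With the common dispersion, edgeR's exact test called 2 genes in place of 294 and 0 of the members in place of 6. At an unadjusted p under 0.05 there were 25 genes and 0 members. The dispersion came from the same libraries that the test compares, so these counts decide nothing about single genes. With all reads as the denominator the summed level was 6749 CPM, and in the unstranded column it was 16264 CPM and Mir30e was at 0 CPM and 0% of its pair. Leaving out a replicate gave summed levels of 19039 to 19696 CPM. Pair shares were then 95.8% to 96.0% for Mir30a, 97.9% to 98.7% for Mir30d and 96.8% to 97.0% for Mir30e. The number expressed was 6 under each threshold and each single library. The split of all calls moved to 178 higher in replicate 1 and 119 in replicate 2 by total counts, and 146 and 155 by DESeq2 size factors. No paired analysis was possible because there is 1 group. By the limit of 3 counts, Mir30f lay under about 0.673 CPM.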

Other observations

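The 3p arms of Mir30c-1 and Mir30c-2 carry the seed UGGGAGA, which 1 further mature name of the RefSeq table, miR-6958-5p, also carries. Its gene Mir6958 had 28 sense counts in replicate 1 and 7 in replicate 2, or 5.42 and 1.57 CPM, far below both miR-30c genes.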
